A study of Homo sapiens with 14 samples.

Results

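The first 200 residues of CFTR, 13.5% of the protein's length, from the start of the reading frame through the N-terminus to the first membrane-spanning helices, are described here by the ribosome footprints they held. They were chosen by position alone: every residue numbered 1 to 200 was taken from each of 14 ribosome-profiling libraries, and a residue without a line in a file was counted as 0 reads. Ribosome profiling sequences the mRNA fragments that a translating ribosome protects from nuclease, so that reads at a codon count how often ribosomes were found there. The cells were HEK293, an immortalized human embryonic kidney line, made to overexpress 1 CFTR construct per library.

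The constructs encode one and the same protein and differ in synonymous codons. WT carries the native codons (n = 5 libraries), and High-abc is a construct with replaced codons that the labels do not list (n = 5). High-Leu558 is WT with the codon of Leu558, a leucine far downstream, changed from UUA to CUC (n = 2). In WT-Leu558-in-High-abc the native codon of Leu558 was put back into High-abc (n = 2). WT and High-Leu558 are together called the WT background, and the other pair of constructs the High-abc background. The changed leucine lies outside residues 1 to 200, and whether the mRNA of High-abc differs from WT within them is not given in the sources used here. All constructs were expressed from introduced DNA, so positions are residues of the protein. The cells' own gene, CFTR (gene ID 1080), occupies 117480025 to 117668665 of chromosome 7 in GRCh38.p14, and reads from it cannot be told apart here from reads of a construct.

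CFTR is the chloride channel that is mutated in cystic fibrosis and belongs to the ATP-binding cassette (ABC) transporter family. Its chain begins with the lasso motif, a segment of helices and loops that packs against the membrane domain, followed by the first membrane-spanning helices and the long first intracellular loop. A membrane protein of this kind is brought to the endoplasmic reticulum while it is being made: a hydrophobic helix that leaves the ribosome's exit tunnel is bound by the signal recognition particle, and later helices enter the membrane through the translocon. Footprints at a given codon therefore report on a ribosome whose most recent residues are still inside the tunnel. For description the region was divided at rounded residue numbers into the start (1 to 20), a segment that approximates the lasso (21 to 80), one around the first pair of helices (81 to 140) and, from there to residue 200, one around the first intracellular loop.

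The libraries held 2463 (High-abc replicate 3) to 32630 (WT replicate 2) CFTR reads, with a median of 6374. Residues 1 to 200 received 388 to 6639 reads per library and 23292 of the 132556 reads of all libraries. Between 111 and 187 of the 200 residues had a read in a given library. A residue without reads allows up to 0.122% of CFTR reads in the library with the fewest reads and 0.00919% in that with the most, a limit that covers counting error only.

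Footprints were denser on the first 200 residues than on the rest of the frame in every library. An even spread of reads would put 13.5% of them there. In WT the share was 15.1%, 20.3%, 18.5%, 14.3% and 16.9% in replicates 1 to 5, a mean of 17.0% ± 2.47 (SD, n = 5). High-abc libraries placed 16.0%, 23.1%, 15.8%, 15.1% and 18.4% of their reads there (17.7% ± 3.28, SD, n = 5). The High-Leu558 libraries gave 15.0% and 15.9% (15.4% ± 0.637, SD, n = 2). For WT-Leu558-in-High-abc the shares were 16.6% and 18.4% (17.5% ± 1.27, SD, n = 2). WT and High-abc overlapped each other and both groups of 2, while both High-Leu558 libraries lay below both of WT-Leu558-in-High-abc. The replicates numbered 2 of WT and High-abc lay at the top of their groups. The density of reads per residue in 1 to 200 was 1.31 times that in the rest of the frame as a geometric mean over libraries, a log2 ratio of 0.39 (SD 0.24, SE 0.06, n = 14). It was above 1 in 14 of 14 libraries (exact two-sided sign-flip test, p = 0.000122, the smallest that 14 libraries can give), a test that was added after the values were seen and takes the libraries as independent. With the WT and High-abc libraries of one number averaged, the log2 ratio was 0.38 and above 0 in 9 of 9 values (exact sign-flip p = 0.00391, the smallest possible). With all libraries of one number averaged, it was 0.37 and above 0 in 5 of 5, where the exact test cannot go below the 0.0625 it gave.

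**Figure D1:**
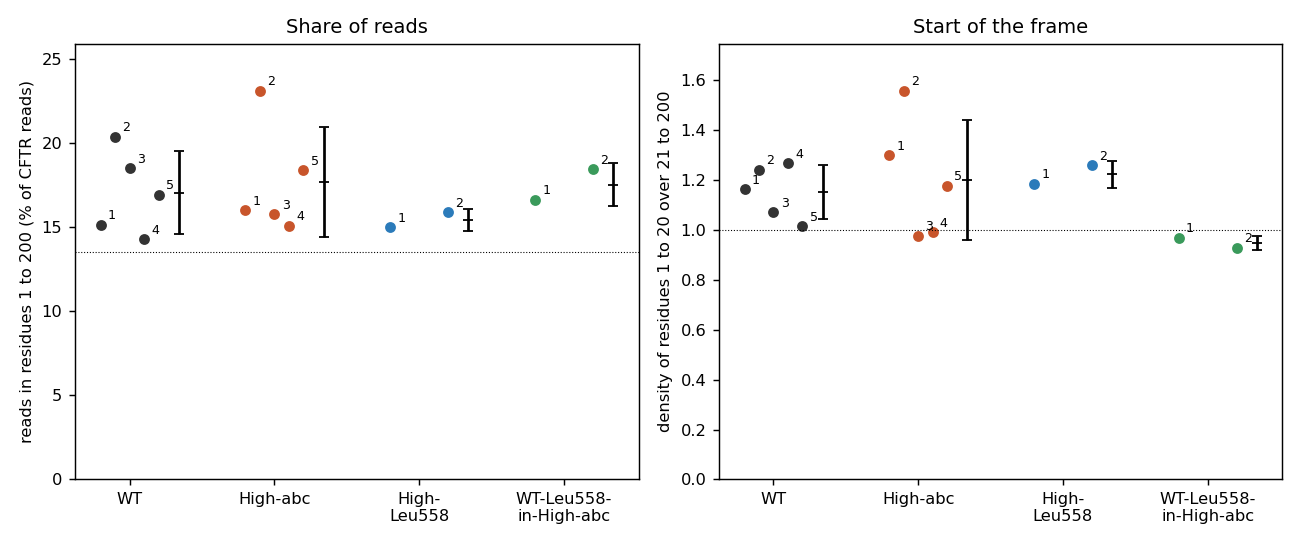
Left, percent of a library's CFTR reads in residues 1 to 200; right, density of reads in residues 1 to 20 over that in residues 21 to 200. Each point is 1 library with its replicate number, bars give the group mean ± SD, and the dotted line marks an even spread; all 14 shares lie above 13.5%, and on the left WT and High-abc overlap, while both High-Leu558 points lie below both of WT-Leu558-in-High-abc.

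Within the frame the density was highest in the first stretch and lowest in the last. Relative to the library's mean residue, a measure called occupancy from here on, the density averaged 1.26 ± 0.180 in residues 1 to 200 and 1.13 ± 0.0742 from there to residue 400 (SD, n = 14 each). It was 0.826 ± 0.113 (SD, n = 14) in the last stretch, from residue 1201 on. Of the 6 stretches that end at residues 200, 400, 650, 850, 1200 and the last, the first was the densest in 9 libraries and the second in 5. By segment, the excess lay in all but the last, although residues 121 to 130 and 131 to 140, the end of the third, lay below the mean residue in every library. Mean occupancy was 1.44 ± 0.364 in the start, 1.55 ± 0.345 in the lasso segment and 1.24 ± 0.229 around the first pair of helices. Around the first intracellular loop it was 0.946 ± 0.0837 (SD, n = 14 for each), below the average of the whole message. Occupancy exceeded 1 in 14 of 14 libraries in the lasso segment and in 3 of 14 around the loop.

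Reads were concentrated on single residues. Of the 200 residues, 81 (40.5%) had a mean occupancy above 1, against 25.6% of the residues after them. An occupancy above 5 was reached by 9 residues (4.5%), against 1.88% in the rest of the frame, while the median residue stood at 0.644 and 0.507. The 10 most occupied residues were, in descending order, 26, 88, 33, 101, 113, 7, 35, 166, 54 and 3, and they are described by that choice, with no test. Together they held 30.4% ± 3.28 (SD, n = 14 libraries; range 25.4% to 37.8%) of the reads of the region. Residue 3, the last of them, had a mean occupancy of 4.89, and residue 116, the first outside, 3.89. Between 5 and 9 of the 10, with a median of 7, were also among a library's own 10 most occupied residues. Reads were found in all 14 libraries at 51 residues (25.5%), against 18.9% of the rest of the frame.

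**Figure D2:**
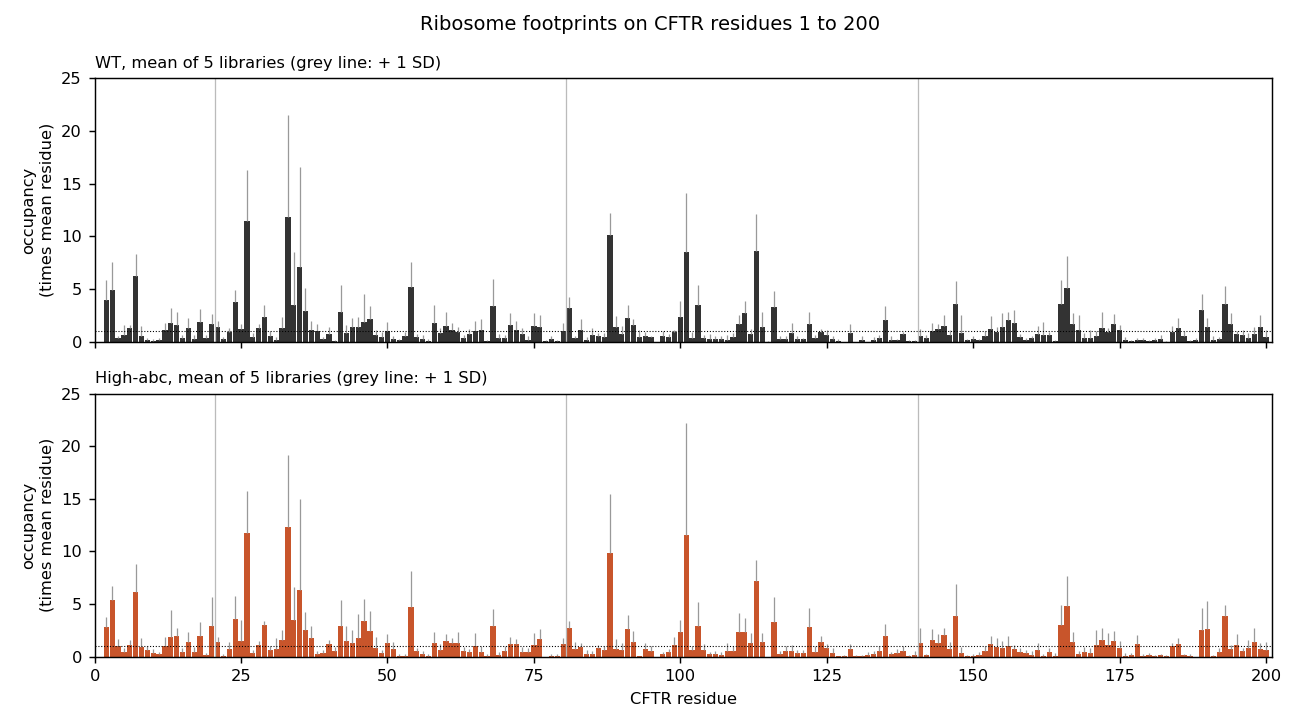
Mean occupancy (reads over the library's mean per residue) of each of residues 1 to 200 in WT (top) and High-abc (bottom), 5 libraries each; thin grey lines add 1 SD, the dotted line marks the mean residue, and vertical lines divide the 4 segments. The tallest bars of both constructs stand at residues 26, 33, 88, 101 and 113, and low stretches follow residue 122 and residue 175.

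At the start of the frame, the initiator methionine, residue 1, had no read in any library, which allows at most 0.00226% of all reads. Which site of the ribosome a residue number stands for is not given in the sources used here. Residue 2 was the first with reads in every library. Its occupancy was 4.87, 3.81, 6.71, 2.55 and 1.77 in the WT libraries and 2.67, 4.31, 2.40, 1.51 and 3.10 in those of High-abc, and the groups overlapped. Residue 3 held 3.59, 1.54, 7.83, 4.34 and 7.35 in the WT libraries and 5.07, 7.10, 4.81, 6.19 and 3.69 in those of High-abc. Its mean was 4.89 ± 1.74 (SD, n = 14), which is rank 35 in the frame. Residue 4 was sparse, with 0.513, 0.408, 0.559, 0.255 and 0 in the WT libraries and 0.800, 2.03, 0.601, 0.688 and 1.18 in those of High-abc. Every High-abc library was thus above every WT library at residue 4. That order rests on 13 reads in WT and 25 in High-abc, and on 1 read in each of the replicates numbered 3. Residue 5 had no read in 4 of the libraries and at most 2.24 in any (WT replicate 3). Residue 7 was the highest point of the start, at 6.30 ± 1.91 (SD, n = 14; range 3.00 to 9.64).

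The density of the start relative to residues 21 to 200 was compared between constructs. The ratio was 1.16, 1.24, 1.07, 1.27 and 1.01 in the WT libraries and 1.30, 1.56, 0.977, 0.992 and 1.18 in those of High-abc. High-Leu558 had 1.19 and 1.26, and WT-Leu558-in-High-abc 0.969 and 0.929. The last pair lay below every other library. Against High-abc its log2 difference was -0.32 (SE 0.13; exact two-sided permutation test, p = 0.0952, the smallest that 2 against 5 libraries can give; adjusted p = 0.794 over 14 tests). This did not pass the test. High-abc differed from WT by 0.04 on the log2 scale (SE 0.14, p = 0.786, exact permutation test), less than the spread between libraries.

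In the lasso segment, residue 26 was the most occupied residue of the region, at 11.9 ± 3.62 times the mean residue (SD, n = 14; 1205 reads; rank 8 in the frame). Its occupancy was 13.3, 18.3, 5.59, 11.7 and 8.36 in the WT libraries and 12.3, 17.2, 6.61, 12.9 and 9.60 in those of High-abc. High-Leu558 showed 12.0 and 12.5, and WT-Leu558-in-High-abc 11.2 and 15.2. It was the tallest residue of the region in 7 libraries, and the groups overlapped throughout. The peak was narrow: residues 25 and 27 had mean occupancies of 1.47 and 0.414. Residue 26 supplied 48.3% of the mean occupancy summed over the window of residues 21 to 30.

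Residues 33 to 36 formed a broader cluster, with mean occupancies of 10.3, 3.16, 5.87 and 2.45 in that order, after 1.21 at residue 32. Residue 33 had 7.43, 8.66, 29.1, 5.62 and 8.36 in the WT libraries and 8.00, 14.5, 23.4, 7.15 and 8.57 in those of High-abc, and in the groups of 2 it lay between 4.96 and 6.27. Residue 35 held 2.56, 2.40, 24.0, 3.06 and 3.30 in the WT libraries and 1.87, 1.52, 21.6, 2.48 and 4.14 in those of High-abc. WT replicate 3 and High-abc replicate 3 stood far above the other libraries at both residues, and they were also the 2 shallowest libraries, with 2647 and 2463 reads. The part of depth in this was not tested. Without WT replicate 3 the mean occupancy of residue 35 over the remaining libraries was 4.47, and without High-abc replicate 3 it was 4.65. Each of these means still holds the other of the 2 libraries. Every other library had at most 4.71 at residue 35 (WT-Leu558-in-High-abc replicate 2). Its mean of 5.87 thus lay above all of them and rested on those 2 libraries.

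Further along the lasso segment, residue 54 held 5.24 ± 2.55 (SD, n = 14), with 1.54 in WT replicate 1 at the low end and 10.6 in High-abc replicate 5 at the high end. Residues 42, 46 and 68 had means of 2.51, 2.51 and 3.09. Window 71 to 80 closed the segment at 0.728 ± 0.219 (SD, n = 14), above the mean residue in 2 of 14 libraries.

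Around the first pair of helices, residue 88 stood at 10.3 ± 4.92 (SD, n = 14; 983 reads; rank 10 in the frame). In WT it held 10.3, 11.7, 11.7, 6.64 and 10.4, and in High-abc 9.07, 10.4, 4.81, 5.78 and 19.1. High-Leu558 was low, at 4.14 and 5.68, and WT-Leu558-in-High-abc high, at 15.7 and 19.3. Both High-Leu558 libraries lay below every WT library, while the libraries of WT-Leu558-in-High-abc overlapped those of High-abc through High-abc replicate 5. Residue 88 gave 54.7% of the mean occupancy summed over its window, and its neighbours 87 and 89 averaged 0.581 and 1.42.

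Residue 101 averaged 9.09 ± 6.97 (SD, n = 14; 961 reads; rank 12 in the frame). Its occupancy was 7.43, 18.1, 3.35, 6.38 and 7.10 in the WT libraries and 5.34, 30.2, 4.81, 10.2 and 7.24 in those of High-abc, and it ran from 6.20 to 7.71 in the groups of 2. The replicates numbered 2 were the highest library of either construct. Residue 113 was steadier, at 7.96 ± 2.39 (SD, n = 14; range 3.84 to 13.2). Residue 96, between these peaks, had no read in any library. Residue 115, which lies 2 residues after a peak and just before residue 116 at 3.89 ± 1.82 (SD, n = 14), had 5 reads in 3 libraries.

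The end of this segment was the sparsest stretch of the region. Windows 121 to 130 and 131 to 140 held 0.646 ± 0.182 and 0.424 ± 0.138 (SD, n = 14 each), and neither reached the mean residue in any of the 14 libraries. Even there reads were uneven: of the mean occupancy summed over each window, residue 122 supplied 41.9% in the first and residue 135 49.4% in the second. Around the first intracellular loop the highest residue was 166, at 5.27 ± 2.62 (SD, n = 14; range 0.769 in WT replicate 1 to 9.08 in WT-Leu558-in-High-abc replicate 1), flanked by residue 165 at 3.03 and residue 167 at 1.81. Residue 193 followed at 3.77 ± 1.22 (SD, n = 14). Window 171 to 180 was again low, at 0.711 ± 0.208 (SD, n = 14).

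**Figure D3:**
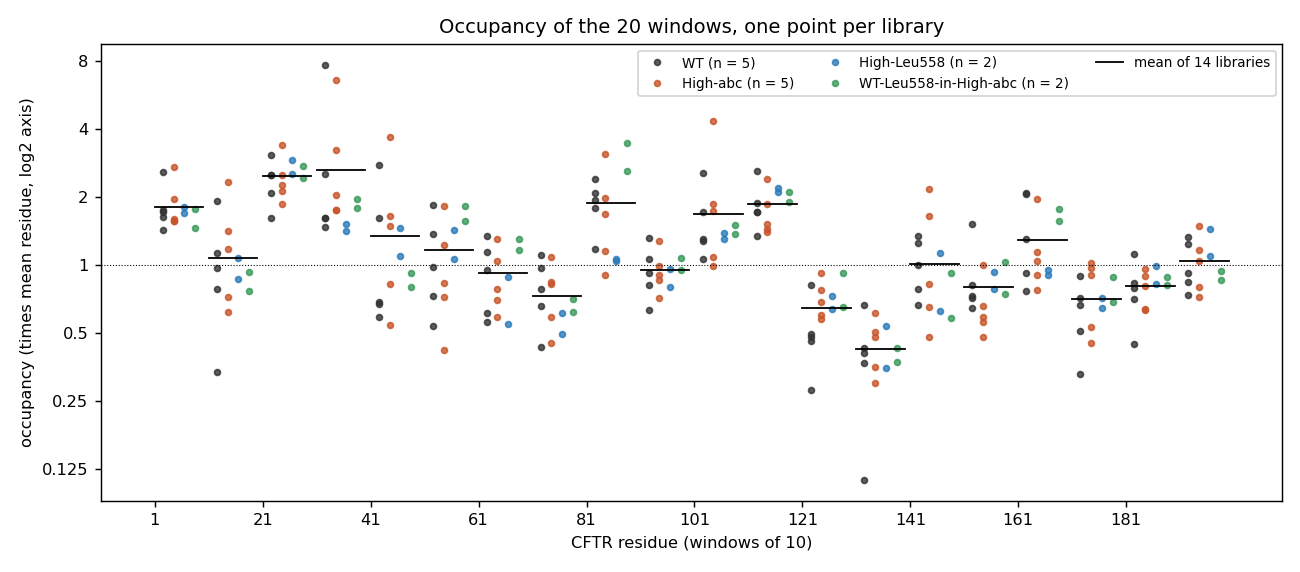
Occupancy of the 20 windows of 10 residues on a log2 axis, 1 point per library coloured by construct, with a black line at the mean of 14 libraries and a dotted line at the mean residue. Windows 21 to 30 and 31 to 40 are the highest, at means of 2.47 and 2.65, windows 121 to 130 and 131 to 140 the lowest, and WT replicate 3 and High-abc replicate 3 stand above the rest at 31 to 40.

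Of all 148 windows of the frame, window 31 to 40 ranked 3, window 21 to 30 ranked 7 and window 81 to 90 ranked 10, while window 131 to 140 ranked 132. Window 21 to 30 ranged from 1.62 in WT replicate 3 to 3.40 in High-abc replicate 2. Window 31 to 40 reached 7.72 in WT replicate 3 and 6.61 in High-abc replicate 3, against 1.42 to 3.22 in the other libraries. Its rank therefore rested on those 2 libraries: without WT replicate 3, but with High-abc replicate 3 still in, its mean fell from 2.65 to 2.26. By the median over libraries, window 31 to 40 was at 1.78 and window 21 to 30 at 2.51.

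The main comparison asked whether the synonymous codons of High-abc changed the footprints of the region. No residue and no window of residues 1 to 200 passed the test of a change. By edgeR's quasi-likelihood test with Benjamini-Hochberg adjustment over the whole frame, 0 of the 63 residues of the region that had enough reads to be tested passed an adjusted p of 0.05, against 0.615% of all 325 residues tested. At an unadjusted p under 0.05 the count was also 0 of 63, against 4.92% of all residues tested. DESeq2 called 0 residues too. The tested residues held 73.1% of the reads of the region. All 20 windows were tested, and 0 passed, against 0.676% of the 148 windows of the frame (0 at an unadjusted p under 0.05, against 3.38%). Nothing in the labels says that replicates were separate cultures, so p-values set a difference only against the spread of these libraries, and that spread may be technical.

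The median log2 change from WT to High-abc was 0.05 over the 63 residues and 0.01 over all 325. The median standard error of a change was 0.57 for a residue and 0.31 for a window on the log2 scale, so that only large changes could have been seen at single residues. The smallest p-values belonged to residues 190 (log2 change 0.96, SE 0.63), 122 (0.80, SE 0.54) and 198 (0.95, SE 0.67), each with an adjusted p of 0.999 by edgeR. Among windows they belonged to 121 to 130 (0.47, SE 0.25), 151 to 160 (-0.38, SE 0.28) and 171 to 180 (0.30, SE 0.29), also with an adjusted p of 0.999 by edgeR. These sizes leaned on single libraries: residue 190 was at 0.33 without High-abc replicate 3, residue 122 to 0.37 without High-abc replicate 4, and windows 151 to 160 and 171 to 180 moved to -0.12 and 0.13 without WT replicate 5. At the tallest residue, 26, the change was 0.06 (SE 0.45), and at residue 88 it was 0.03 (SE 0.46).

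WT and High-abc libraries did not overlap at 2 of the 200 residues, 4 and 41, both higher in High-abc, against 0.135% of all residues of the frame in that direction. No residue of the region was lower in High-abc without overlap, against 0.338% of the frame. Residue 41 held 0, 0.181, 0, 0 and 0.253 in the WT libraries and 0.534, 0.507, 1.20, 0.275 and 0.295 in those of High-abc, from 5 and 10 reads. Both residues had too few reads to be tested by edgeR and are given as values. Among the 63 tested residues the libraries overlapped at every one.

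The share of reads in residues 1 to 200 differed between High-abc and WT by 0.05 on the log2 scale (SE 0.15; exact two-sided permutation test, p = 0.770, adjusted p = 0.794 over 14 tests). By segment the differences were 0.06 in the lasso segment, 0.07 around the first pair of helices and -0.04 around the first intracellular loop (SE 0.23, 0.19 and 0.10; exact permutation p = 0.786, 0.714 and 0.659). Each of these differences was smaller than its standard error, and their directions rested on single libraries. Without High-abc replicate 2 the first 2 turned to -0.06 and -0.03, and that of the whole region to -0.05. Without WT replicate 4 the whole region gave -0.01 and the lasso segment -0.04, without WT replicate 3 the helices gave -0.01, and without High-abc replicate 3 the loop gave 0.02.

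**Figure D4:**
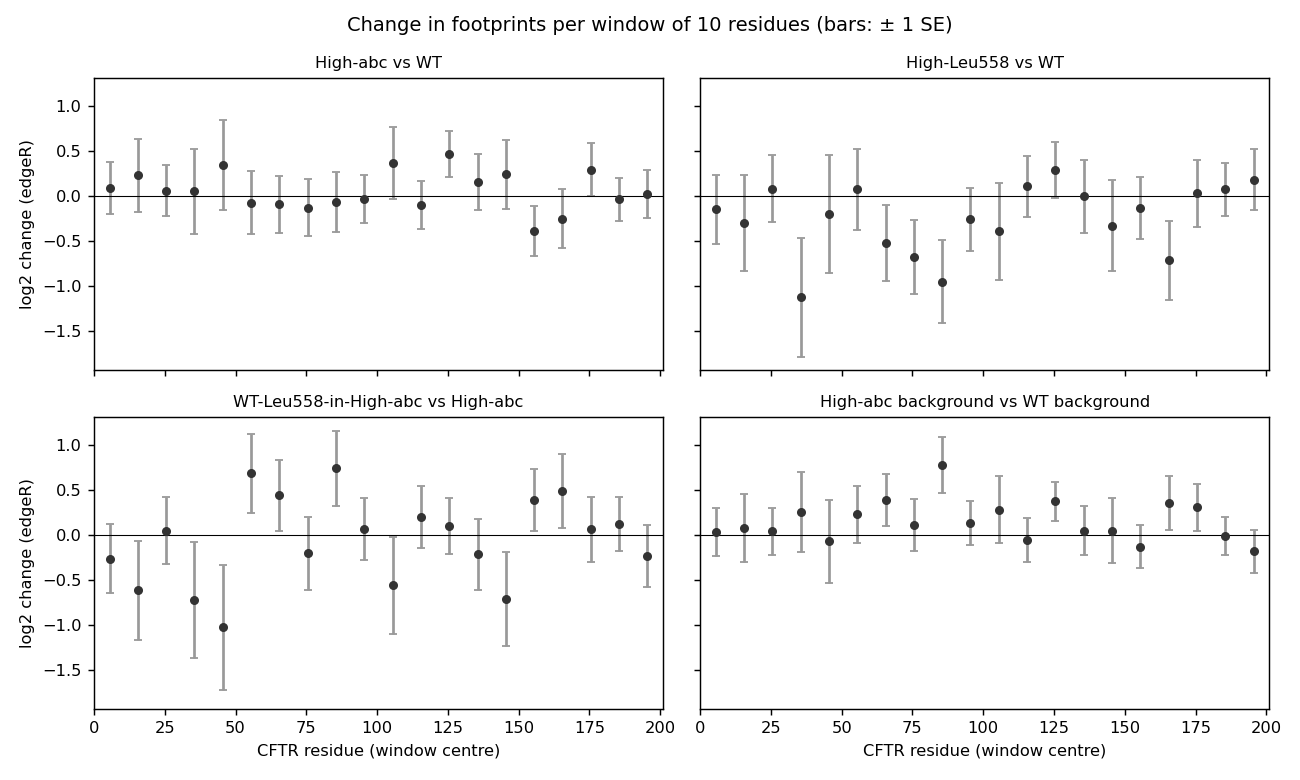
Log2 change by edgeR in each of the 20 windows of 10 residues, plotted at the window's centre, for the 4 comparisons; bars give ± 1 SE and the horizontal line marks no change. No window passed the adjusted threshold in any panel; errors are wider where a group of 2 libraries is compared with a group of 5, and window 81 to 90 is lowest apart from 31 to 40 in High-Leu558 vs WT and highest in the lower panels.

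The change of the single codon at Leu558 was compared in either background. In High-Leu558 against WT, 0 of 63 residues passed, against 0.308% of those tested over the frame, and 0 of 20 windows, against 0.676%, by edgeR with Benjamini-Hochberg adjustment (0 of either by DESeq2). At an unadjusted p under 0.05 there were 2 residues, 13 and 198, which is 3.17% of 63, against 3.38% over the frame. These 2 were named after their values were seen. Residue 13 had occupancies of 0.138 and 0 in the High-Leu558 libraries, from 1 and 0 reads. In WT it had 2.56, 3.63, 0.559, 0.255 and 1.77, from 10, 80, 1, 1 and 7 reads. Its log2 change was -4.48 (SE 1.40, adjusted p = 0.250 by edgeR). Residue 198 had occupancies of 3.03 and 2.48 in High-Leu558 and at most 1.53 in WT (log2 change 1.70, SE 0.78, adjusted p = 0.893 by edgeR). The share of reads in the region was lower by a log2 difference of -0.13 (SE 0.10; exact permutation test, p = 0.476, where 0.0952 is the smallest possible).

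With the native codon put back into High-abc, 0 of 63 residues and 0 of 20 windows passed the test against High-abc, compared with 0.615% of the residues and 0% of the windows of the frame, by edgeR with Benjamini-Hochberg adjustment (0 of either by DESeq2). At an unadjusted p under 0.05, residues 47 (log2 change -2.21, SE 0.87) and 89 (1.94, SE 0.79) passed, 3.17% against 3.69% over the frame. They too were named after their values were seen, and each had an adjusted p of 0.983 by edgeR. No window had an unadjusted p under 0.05, against 6.76% over the frame. Residue 47 held 0.339 and 0.857 in WT-Leu558-in-High-abc, below all High-abc libraries, at 1.33, 5.83, 1.20, 1.38 and 2.36. Residue 89 held 2.46 and 4.93, above all High-abc libraries, of which replicate 5 was the highest at 2.36. The share of reads in the region differed by 0.00 (SE 0.13; exact permutation test, p = 0.762).

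Over both codons at once, the High-abc background was set against the WT background in all 14 libraries. No residue passed (0 of 63, against 0.923% of the frame) and no window passed (0 of 20, against 0%), by edgeR with Benjamini-Hochberg adjustment and by DESeq2. At an unadjusted p under 0.05 there were 2 residues and 1 window, 3.17% and 5% of those of the region, against 4.62% and 4.05% of those of the frame. They were residue 88 (log2 change 0.93, SE 0.43), residue 13 (1.78, SE 0.86) and window 81 to 90 (0.78, SE 0.31), higher in the High-abc background as an average over both codons. Their adjusted p-values by edgeR were 0.891, 0.944 and 0.991. Residue 65 (1.10, SE 0.71) and windows 121 to 130 (0.38, SE 0.22) and 61 to 70 (0.39, SE 0.29) came next and did not pass either. Window 81 to 90 held 1.05 and 1.06 in High-Leu558 and 2.62 and 3.47 in WT-Leu558-in-High-abc. The WT libraries spanned 1.17 to 2.41 in it and those of High-abc 0.901 to 3.10, so that WT and High-abc overlapped and the contrast came from the groups of 2. At residues 88 and 13 the log2 change of High-abc against WT was 0.03 for each (SE 0.46 and 0.72). At residue 13, High-Leu558 held 0.138 and 0. WT-Leu558-in-High-abc held 0.509 and 1.71 there, within the WT range of 0.255 to 3.63. The average of 1.78 at residue 13 thus rested on the near absence of reads in High-Leu558. The share of reads in the region was higher by a log2 difference of 0.11 (SE 0.08; exact permutation test within each codon, p = 0.376), and around the first pair of helices by 0.24 (SE 0.11, p = 0.154, exact permutation test).

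With the replicate number as a block in the fit of all libraries, several of these calls changed. The labels do not say what a number shares, and the numbers were seen to pair libraries in WT and High-abc alone; in the groups of 2 this could not be checked. High-abc against WT still gave 0 residues, against 1.23% of the frame, and 0 windows, against 1.35%, by edgeR. High-Leu558 against WT gave residues 13 (adjusted p = 0.000883) and 88 (log2 change -1.18, SE 0.37, adjusted p = 0.0459), 3.17% of 63 against 6.77% of the frame. Windows 71 to 80 (-1.05, SE 0.24) and 81 to 90 (-1.07, SE 0.27) also passed there, 10% against 14.2%. The return of the native codon to High-abc gave residues 42 and 47, which were lower, and 58 and 89, which were higher, 6.35% of 63 against 8.31%. Its windows 11 to 20, 41 to 50 and the one that begins after residue 140 were lower and 51 to 60 and 151 to 160 higher, 25% against 19.6%. Between the backgrounds, residue 88 (log2 change 0.90, SE 0.23, adjusted p = 0.0283 by edgeR) and window 81 to 90 (0.77, SE 0.17, adjusted p = 0.0328 by edgeR) passed, 1.59% of residues against 1.85% and 5% of windows against 0.676%. In all 3 comparisons the share of the region's residues that was called lay below the share over the frame. For windows it lay below in High-Leu558 against WT and above in the other 2 comparisons. Each share rests on at most 5 called residues or windows, and the difference from the frame was not tested.

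Whether the effect of the codon at Leu558 differed between the backgrounds was tested as an interaction. Without the block 0 of 63 residues and 0 of 20 windows passed by edgeR, against 0% of the frame for both, and 4 residues had an unadjusted p under 0.05, 6.35% against 6.15% (0 windows, against 4.73%). With the block, 8 residues passed, 12.7% against 13.2% of the frame, and 5 windows, 25% against 25%.

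WT and High-abc libraries that share a replicate number had more alike profiles in the region, on average, than pairs within WT or within High-abc. Over residues 1 to 200, Spearman's correlation of the profiles averaged 0.711 for the 5 pairs of a WT and a High-abc library with the same number and 0.574 for the 20 pairs with different numbers. It averaged 0.582 for the 20 pairs within WT or within High-abc, and 0.763 for the 2 pairs within a group of 2. In the rest of the frame the same averages were 0.614, 0.503, 0.510 and 0.696. These are descriptions over 200 and 1280 residues of the same libraries, which also differ in depth.

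An edgeR test of the replicate number in WT and High-abc, with the construct kept in the fit, was added after the profiles were seen. It called 15 of the 63 residues, 23.8% against 19.7% of the frame, and 13 of the 20 windows, 65% against 47.3%. In the start these were residue 13. In the lasso segment they were residues 26, 33, 34, 35, 42, 45, 46, 54, 58 and 68. Residues 101 and 103 belonged to the first pair of helices, and 165 and the residue after 140 to the loop. Residue 35 had the smallest adjusted p by edgeR, 2.12e-05, followed by residue 101 (0.000146) and residue 33 (0.000944), and among windows 31 to 40 did, with 3.39e-06.

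The patterns by number differed between residues. At residues 33, 34 and 35 the replicates numbered 3 of both constructs were the highest, with 12.3 and 9.01 at residue 34. At residue 101 the replicates numbered 2 were. Residue 26 was highest in number 2 and lowest in number 3 of both constructs, and residue 13 was highest in number 2, at 3.63 in the WT libraries and 6.09 in those of High-abc, and at 2.56 and 2.67 in number 1. Residue 13 held 0.559 or less in numbers 3 and 4 of both constructs. Without WT replicate 1 the test called 6 residues of the region and without High-abc replicate 1 it called 8. With the pair numbered 3 left out it called 9, of which 8 were among the 15. DESeq2 called 17 residues and 10 windows.

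**Figure D5:**
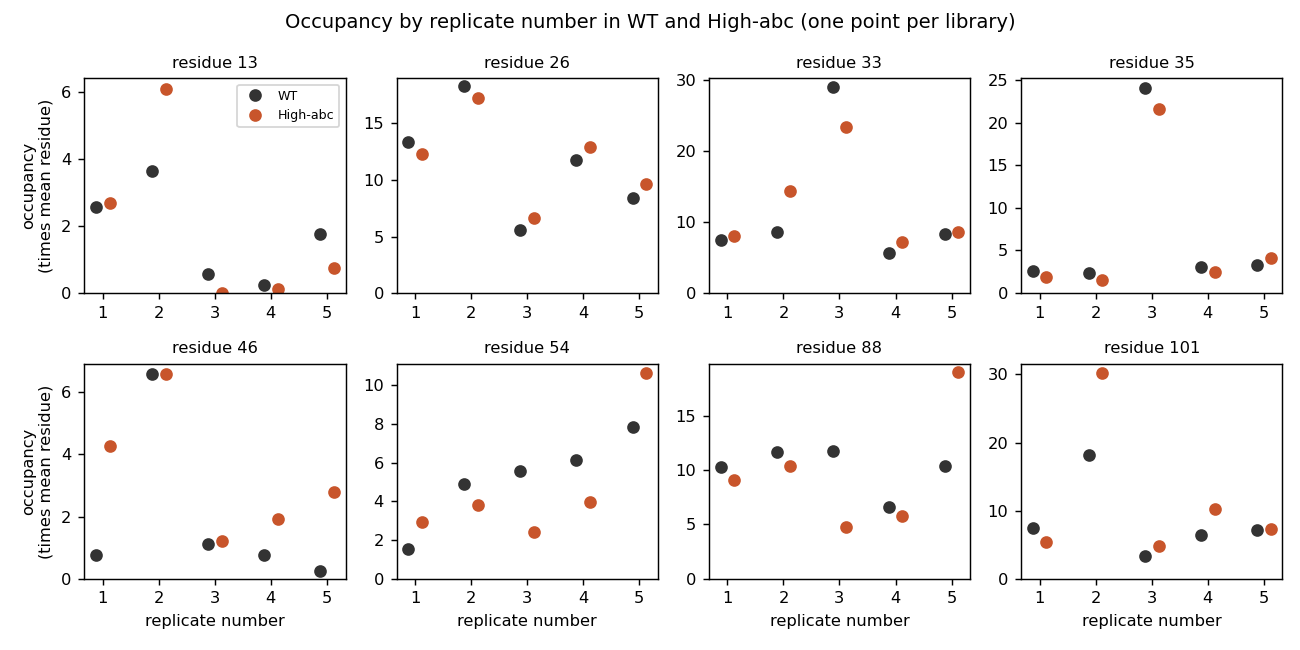
Occupancy (times the mean residue) against the replicate number in the labels at residues 13, 26, 33, 35, 46, 54, 88 and 101, 1 point per WT (dark) or High-abc (orange) library; vertical axes start at 0 and differ in scale. Points of the same number lie close together at residues 26 and 35 and, apart from numbers 2 and 3, at residue 33. In both constructs number 3 is lowest at residue 26 and highest at residues 33 and 35. Residue 88, which did not pass the test of the number, shows no such pairing in numbers 3 and 5.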

How the data were processed

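Footprints were made with RNase I, ribosomes were pelleted, and libraries were built by linker ligation, reverse transcription, circularization and PCR, per the labels' protocols. HISAT2 and hg38 stand in the submitters' processing notes, with no version and no role; the site of the ribosome to which a read was assigned is not given in the sources used here. Per the file headers, each residue has a deposited read count and, as a percent, its part of the library's CFTR-mapped reads. The authors' percent equals the count over the library's total up to rounding, so the counts were analysed and percentages recomputed. No molecular identifiers are mentioned, so limits from counts cover counting error only.

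Occupancy is the count at a residue, or the mean count of a stretch, over the library's mean count per residue. Residues and windows of 10 residues over the whole frame were fitted with edgeR 4.0.16 in R 4.3.3, with limma 3.58.1: filterByExpr, TMM factors, 1 term per group over 14 libraries, quasi-likelihood test and Benjamini-Hochberg adjustment at 0.05. The filter left 325 of 1480 residues, 22.0%, with 64.7% of the reads, and all 148 windows. Libraries of a group varied by 53.4% per residue and 31.8% per window beyond counting error, from the common dispersion. Standard errors are the log2 change over the square root of F. Shares were compared on the log2 scale by exact two-sided permutation of library labels (Python 3.11.15 with scipy 1.17.1, numpy 2.4.6 and pandas 2.3.3), adjusted over 14 tests; the smallest p was 0.00794 for 5 against 5, 0.0952 for 5 against 2 and 0.00454 between backgrounds, where libraries were relabelled within each Leu558 codon.

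The labels number the replicates. A WT and a High-abc library of the same number deviated together from their groups' means in each of 5 pairs (r between 0.408 and 0.585 over 325 residues). The other pairs had a median of -0.184, but deviations from a group's mean sum to 0, which pulls them below 0. Over the 63 tested residues of the region, r was 0.249 to 0.546 in same-number pairs and -0.393 to 0.349 in the others. There the pair numbered 5 was the lowest, below WT replicate 5 with High-abc replicate 4. Numbers were treated as pairing libraries on the values over 325 residues alone. The residues named are the 10 most occupied, those that passed or, where none did, the 3 residues and windows with the smallest p, residues 1 to 5, the first residue with reads in every library, the 3 highest and lowest windows and residues without overlap. Members, lists and tests were chosen with earlier results of these data known. Alternatives were library totals, DESeq2 1.42.0, other filters and windows, moved boundaries, ends or most covered residues left out, the groups compared alone, the replicate block and each library left out. Scripts were tested on simulated data. A protein sequence was not used here.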

Additional observations from a re-analysis of the deposited data

Results flagged for a closer look

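In 48 sets of 5 libraries, 8 values lay far from the other 4 libraries of their group. The rule flags about 1 in 20 sets by chance if sets are independent and not selected. Many sets here were of the most occupied residues and windows, which a single high library helps to select, and some share reads. The count can therefore not be set against that rate. WT replicate 2 had 32630 reads in total, against 2647 to 5839 in the other WT libraries. At residue 33, WT replicate 3 had an occupancy of 29.1, against 5.62 to 8.66. At residue 35, WT replicate 3 had 24.0, against 2.40 to 3.30, and High-abc replicate 3 had 21.6, against 1.52 to 4.14. The window of residues 31 to 40, which holds both residues, reached 7.72 in WT replicate 3, against 1.48 to 2.54.

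At residue 101, near the first pair of helices, WT replicate 2 had an occupancy of 18.1, against 3.35 to 7.43, and High-abc replicate 2 had 30.2, against 4.81 to 10.2. At residue 54 of the lasso segment, High-abc replicate 5 had 10.6, against 2.40 to 3.99. At residues 35 and 101 the library that stood apart carried the same replicate number in WT and in High-abc.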

How the results depend on the processing

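Counts of called residues and windows stayed at 0 in the 4 construct comparisons under library totals, DESeq2, no filter, a mean of at least 20 reads, ends left out, the groups compared alone (not applicable between backgrounds), windows of 20 residues and each library left out. With the replicate block in all libraries the counts were 2 residues and 2 windows for High-Leu558 against WT, 4 and 5 for the native codon returned to High-abc, and 1 and 1 between backgrounds, where the change was 0.90 at residue 88 and 0.77 at window 81 to 90; they stayed at 0 in High-abc against WT, also with the block in these 2 groups alone. Sign flips of the 5 pairs, a replicate block for shares, gave p = 0.5625 for the region (0.05 on the log2 scale, higher in 4 of 5 pairs; smallest possible exact p 0.0625) and changed no other call.

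The share of WT-Leu558-in-High-abc relative to High-abc turned from 0.00 to -0.0103 without the most covered 1% of residues and to -0.0110 with the boundary moved by 10 residues; the loop between backgrounds turned from 0.02 to -0.0290 with the boundary moved. The cause was not tested. With 1 library left out, log2 differences of High-abc against WT ranged from -0.0546 to 0.114 for the region, -0.0561 to 0.112 for the start, -0.0553 to 0.173 for the lasso segment, -0.0306 to 0.199 for the helices and -0.0916 to 0.0173 for the loop. The region ranged from -0.0691 to 0.106 for the native codon returned to High-abc, and the loop between backgrounds from -0.0122 to 0.0571; none of these passed. The density of the region over the rest kept its direction in every alternative run, 0.35 to 0.41 with 1 library left out; with all libraries of one number averaged (a replicate block, 5 values) it was 0.37 with an exact p of 0.0625, the smallest possible. The test of the replicate number called 9 residues without the pair numbered 3 and 6 to 17 with 1 library left out. Without the most covered 1% of residues window 21 to 30 fell from 2.47 to 1.65. Start density with ends left out was not run. With 1 library left out, changes of High-abc against WT ran from 0.33 to 1.25 at residue 190 (7 of 10 fits; it missed the filter in the others), 0.37 to 1.08 at residue 122, -0.61 to -0.12 at window 151 to 160 and 0.13 to 0.49 at window 171 to 180. The shallowest library had a mean of 1.66 reads per residue, and libraries of a group varied by 53.4% per residue beyond counting error; both widen the error of a single residue.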
